A study of Mus musculus with 4 samples.

Results

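The 31 genes described here carry pyruvate from glycolysis into the citric acid cycle and run the cycle and the malate-aspartate shuttle. They were chosen by name, from a list that covers the mitochondrial pyruvate carrier, the pyruvate dehydrogenase complex and its kinases and phosphatase, pyruvate carboxylase, the enzymes of the cycle and the shuttle's malate dehydrogenases and aspartate aminotransferases. All 31 were found in the count tables of all 4 muscles, out of 28989 named genes. All 31 also passed the filter on low counts, as 31 of 9317 genes tested.

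The samples were 4 tibialis anterior muscles of the mouse, muscle being the only group. The tibialis anterior is a mostly fast muscle at the front of the shin. Each was cut along one axis by TOMO-seq, a method in which every cryosection gets its own barcode, and the 3′ ends of its transcripts were counted by CEL-Seq2. The sources used here give no strain, age, sex or treatment and do not say that each muscle came from an animal of its own. In the tests of single genes, level differences between muscles are taken out. Their p-values rest on the scatter of the zone values left around the fit, pooled over all 5 zones, which may be technical. Each muscle was divided by length into 5 zones. Zone 1 is called the first end and zone 5 the last end, after the barcode numbers, because the labels do not say which anatomical end came first. Levels are CPM, the count of a gene scaled to a common library total of each zone. CEL-Seq2 counts a transcript once whatever its length, so levels of different genes are set side by side without a length correction.

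Pyruvate, the end product of glycolysis, enters the mitochondrial matrix through the pyruvate carrier and is turned into acetyl-CoA by the pyruvate dehydrogenase complex. Kinases switch that complex off and phosphatases switch it on. Citrate synthase joins acetyl-CoA to oxaloacetate, and the cycle oxidises the product step by step to give reduced NADH and ubiquinol for the respiratory chain. The malate-aspartate shuttle moves the reducing equivalents of cytosolic NADH into the matrix. In skeletal muscle, oxidative fibres hold more of these enzymes than fast glycolytic fibres.

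The kept sections numbered 37, 45, 46 and 43 in muscles 1 to 4, and the 20 zone sums ranged from 1989683 to 6604613 transcripts. Mitochondrially encoded transcripts took 64.9 ± 1.5% of the counts at the first end and 60.6 ± 4.5% at the last end (SD, n = 4). Summed levels of 6 genes that define the skeletal muscle fibre ran from 26527 to 33519.7 CPM at the first end and from 28033 to 41245 CPM at the last end, and none of the 6 was at 0. In tissue sections, fewer cells of a type and less RNA per cell cannot be told apart.

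Members differed widely in level. Got1, the cytosolic aspartate aminotransferase, was the most abundant at a mean of 994 CPM over all zones and muscles, followed by Cs (citrate synthase) at 362 CPM and Ogdh, the catalytic subunit of 2-oxoglutarate dehydrogenase, at 288 CPM. Pcx (pyruvate carboxylase) at 6.06 CPM, Pdk1, a pyruvate dehydrogenase kinase, at 6.69 CPM and Suclg2, the GTP-forming subunit of succinyl-CoA ligase, at 9.65 CPM were lowest. Subunits of one enzyme were not at one level. In the succinate dehydrogenase complex the flavoprotein gene Sdha averaged 264 CPM and the membrane anchor gene Sdhd 24.8 CPM. For Ogdh and Dlst, which encode successive subunits of the 2-oxoglutarate dehydrogenase complex, the means were 288 and 25.5 CPM.

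Levels also differed between muscles. Some members, like many other genes, split by at least 1.5-fold by the set of section barcodes. Muscles 3 and 4 were prepared with one set of section barcodes and muscles 1 and 2 with another, so barcode set and muscle cannot be told apart. Sdhd had 37.3 and 36.3 CPM in muscles 3 and 4, against 13.7 and 11.8 CPM in muscles 1 and 2. The opposite order was seen for Got2, the mitochondrial aspartate aminotransferase, with 81.2 and 86.9 CPM in muscles 3 and 4, against 168 and 158 CPM in muscles 1 and 2. For Idh2, the NADP-dependent isocitrate dehydrogenase of the matrix, the levels were 11.9 and 7.08 CPM in muscles 3 and 4, against 18.7 and 20.3 CPM in muscles 1 and 2. Both muscles of one set lay at least 1.5-fold above both of the other in 5 of 31 members, against 20.5% of all tested genes. Sdhd was higher in muscles 3 and 4, and Dlat, Idh2, Idh3b and Got2 were higher in muscles 1 and 2. A split of this size was no more frequent among members than among all tested genes. All position results below compare zones within a muscle.

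**Figure D1:**
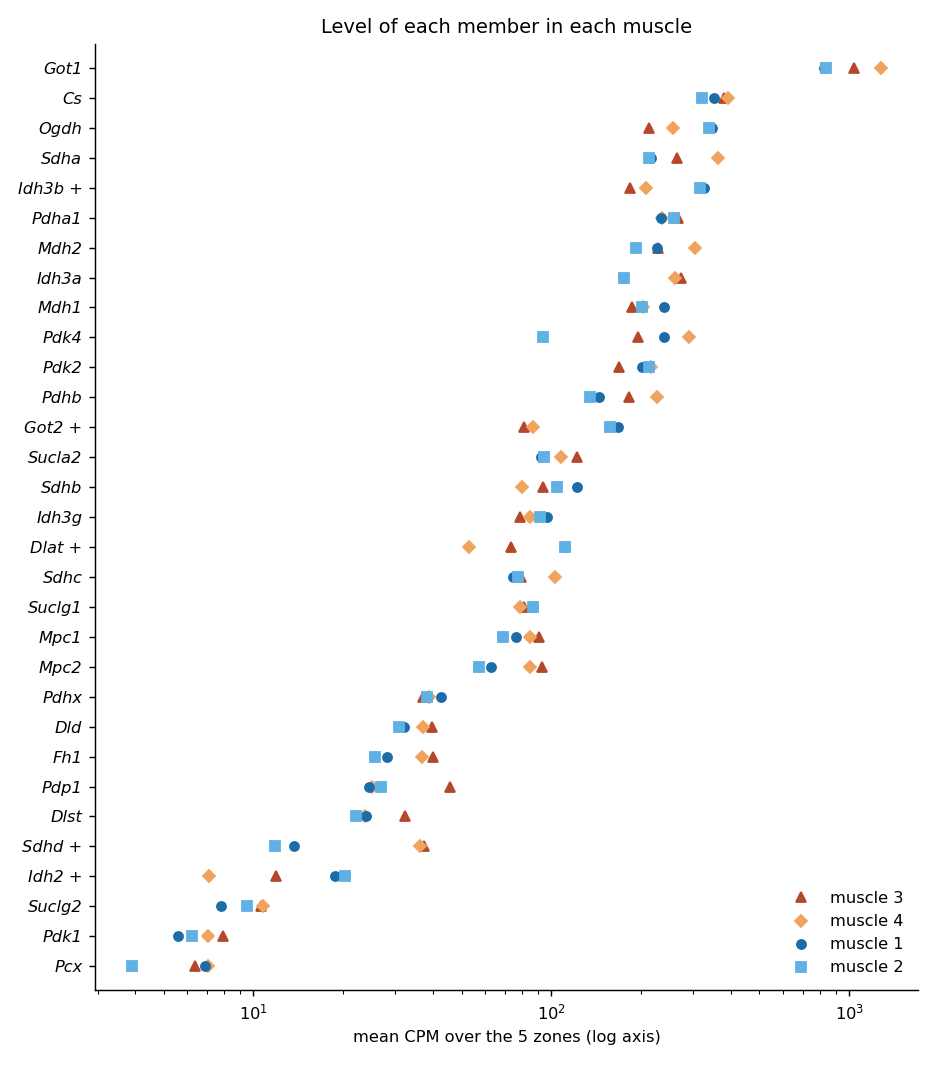
Mean level of each of the 31 members over the 5 zones of each muscle, in CPM on a log axis, ordered by the mean over muscles. Triangles and diamonds are muscles 3 and 4, circles and squares muscles 1 and 2, and a plus sign after the name marks the 5 members with both muscles of one barcode set at least 1.5-fold above both of the other, such as Sdhd with 37.3 and 36.3 CPM in muscles 3 and 4, against 13.7 and 11.8 CPM in muscles 1 and 2.

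Between the ends, transcripts of the pathway were higher at the first end. With edgeR's quasi-likelihood test, muscle as a block and Benjamini-Hochberg adjustment over all 9317 genes, 13 of 31 members passed an adjusted p of 0.05 and all 13 were higher at the first end. Among all tested genes 3.18% passed, 2.04% as higher and 1.14% as lower. The 13 were Dlat, Idh2, Idh3b, Dlst, Sucla2, Suclg1, Sdha, Sdhb, Sdhc, Mdh2, Mdh1, Got1 and Got2. The median difference of the 31 members was 0.24 on the log2 scale, and the median of all tested genes was -0.00. Positive differences were found for 28 members and for 49.6% of all genes. In 25 members the first end was higher in 4 of 4 muscles, as it was in 9.55% of all genes, and the 13 that passed were among these 25. For 2 members, Suclg1 and Mdh1, the 4 values at the first end lay wholly above the 4 at the last end, against 1.91% of all genes without overlap in either direction.

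The fold changes were modest, from a log2 difference of 0.24 for Sdha to 0.78 for Idh2. Without muscle 2, 3 members passed (Idh2, Dlst and Mdh1) of 87 genes in all, against 13 of 296 with it, while all 13 stayed higher at the first end. Leaving out single muscles, Idh2, Dlst and Mdh1 passed in every case, Sdhb, Sdhc, Mdh2 and Got1 were lost only without muscle 2, Dlat without muscle 2 or 4, Got2 without 2 or 3, Suclg1 without 1, 2 or 4, and Idh3b, Sucla2 and Sdha whichever muscle was left out. Standard errors (SE) come from the fit over all 20 zone sums and can be narrower than the spread of the 4 muscles' own differences. Within barcode sets, muscles 1 and 2 alone gave 5 members that passed (Idh2, Ogdh, Mdh2, Mdh1 and Got1) and muscles 3 and 4 alone gave 2 (Dlst and Mdh1), and all 13 stayed higher at the first end in both.

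**Figure D2:**
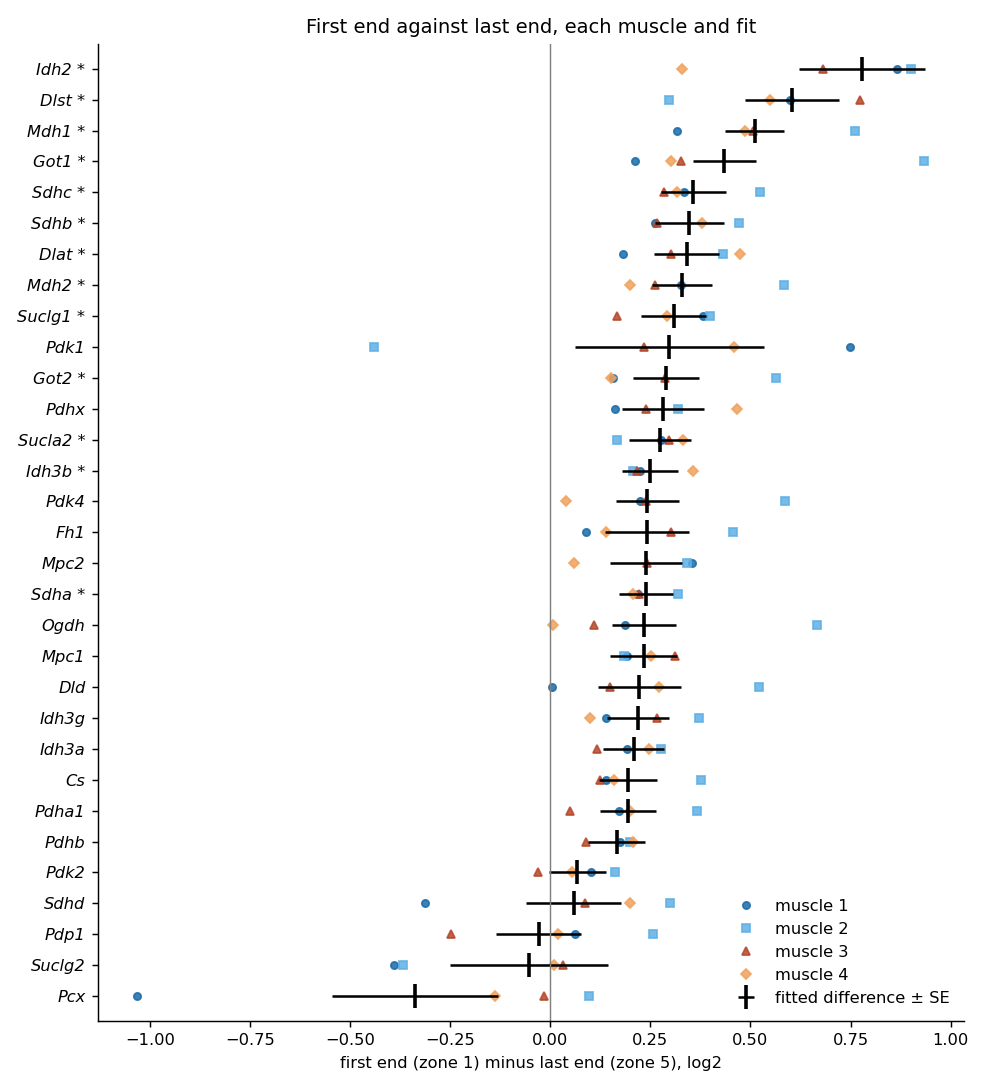
Difference between the first end (zone 1) and the last end (zone 5) on the log2 scale for each member, with 1 coloured point per muscle (log2 of CPM plus 0.5) and the fitted difference with its SE in black; asterisks mark the 13 members with an adjusted p under 0.05. All 4 points of each of these 13 lie right of 0, and Pcx, Suclg2 and Pdp1 are the 3 members with a fitted difference below 0.

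Sequence upstream of the start site is shown for 3 of the 4 members with the largest differences, because they are promoters of members that moved together along the muscle. Mdh1, the other of the 4, is not shown, as its whole RefSeq window lies inside the annotated gene. The RefSeq start of Idh2 also lies inside the annotated gene, so its stretch holds only the 208 bases of the window outside it. Each stretch ends at the last base before the first annotated exon and is written 5′ to 3′ on the gene's strand in lower case, with every CCAAT pentamer, or ATTGG for its other strand, in capitals. Sequences are RefSeq's for GRCm38.p6. The stretches lie at chr7:80115393-80115600, minus strand, for Idh2, at chr12:85110583-85110832, plus strand, for Dlst, and at chr19:43524606-43524855, minus strand, for Got1.
Idh2: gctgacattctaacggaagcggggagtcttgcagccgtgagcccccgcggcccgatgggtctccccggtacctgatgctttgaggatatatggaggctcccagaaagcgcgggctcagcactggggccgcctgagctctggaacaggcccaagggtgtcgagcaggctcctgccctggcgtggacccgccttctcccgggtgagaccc
Dlst: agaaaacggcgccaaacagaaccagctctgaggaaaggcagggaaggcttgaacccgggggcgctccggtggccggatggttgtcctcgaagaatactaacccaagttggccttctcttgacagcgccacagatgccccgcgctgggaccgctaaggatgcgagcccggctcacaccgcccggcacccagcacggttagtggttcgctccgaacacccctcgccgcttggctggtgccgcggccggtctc
Got1: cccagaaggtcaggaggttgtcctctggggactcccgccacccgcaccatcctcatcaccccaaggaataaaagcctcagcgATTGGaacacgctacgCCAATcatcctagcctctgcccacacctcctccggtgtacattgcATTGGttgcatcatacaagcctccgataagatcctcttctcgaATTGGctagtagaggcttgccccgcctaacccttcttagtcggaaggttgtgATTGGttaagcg

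The 208 bases of Idh2 and the 250 bases of Dlst hold no whole CCAAT, although the window of Idh2 has 1 that begins in the last printed bases and runs past their end. The 250 bases of Got1 hold 5, a number reached by 0.213% of all 32851 promoters over the same 250 bases. CCAAT, the core of the binding site of nuclear factor Y, was added to the search after the Got1 sequence had been read. In windows of 300 bases around the start, CCAAT occurred for 18 of the 28 members with a promoter in the table, in 24 of their 37 promoters (64.9%), and in 37.4% of all promoters. Several of these windows belong to Ogdh and overlap, so they are not separate cases. A further 4 elements linked with genes of oxidative metabolism were also sought on both strands. TNAAGGTCA, the element of the oestrogen-related receptors, occurred in 1 member, Sdhd, and in 1.28% of all promoters. The palindromic element of nuclear respiratory factor 1 occurred in no member and in 0.971% of all. CCGGAAGTG, an element of the GA-binding protein, occurred in Dlst alone, spanning the start site at the edge of the stretch printed, and in 2.03% of all, and TGACGTCA, the cAMP response element, in Mdh2 and Ogdh and in 1.79% of all. These letter matches are descriptions of the windows and say nothing about binding.

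The pyruvate carrier is a pair of inner-membrane proteins, Mpc1 and Mpc2, and neither passed the test. Mpc1 had 84.7, 73.6, 97.99 and 86.9 CPM at the first end of muscles 1 to 4, against 74.2, 64.7, 78.8 and 72.9 CPM at the last end, a fitted log2 difference of 0.23 ± 0.08 (SE). Mpc2 had a difference of 0.24 ± 0.09. Both were higher at the first end in 4 of 4 muscles, with overlapping ranges. Near-identical processed pseudogenes exist for Mpc1, so its counts may be split, and exons of another gene lie on its opposite strand.

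In the pyruvate dehydrogenase complex, Dlat, the acetyltransferase at its core, rose at the first end. It had 117, 139, 80.96 and 62.4 CPM at the first end of muscles 1 to 4, against 103, 103, 65.6 and 44.8 CPM at the last end. Every muscle was higher at its first end, while the ranges overlapped, with more Dlat in muscles 1 and 2 than in muscles 3 and 4 throughout. The fitted difference was 0.34 ± 0.08 (edgeR, adjusted p = 0.0068). Pdhx, which anchors the E3 subunit in the complex, had 49.3, 40.2, 41.7 and 46.6 CPM at the first end, against 43.98, 32.2, 35.3 and 33.6 CPM at the last end, and its first end was higher in all 4 muscles with overlapping ranges. That difference, 0.28 ± 0.10, did not pass (adjusted p = 0.15). Pdhx did vary among the 5 zones (edgeR F-test, adjusted p = 0.025), and its lowest mean lay in zone 4, at 32.97 ± 4.54 CPM (SD, n = 4). The E1 subunit genes Pdha1 and Pdhb and the E3 gene Dld, which the 2-oxoglutarate dehydrogenase complex shares, had differences of 0.19 ± 0.07, 0.17 ± 0.07 and 0.22 ± 0.10 and did not pass. Map3k15 exons lie on the opposite strand of Pdha1.

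None of the 4 regulators of the complex passed. The kinase Pdk4, which is induced by fasting and fatty acids, had 257, 116, 196 and 299 CPM at the first end of muscles 1 to 4, against 219.9, 77.3, 166 and 291 CPM at the last end. Its first end was higher in every muscle, by 0.22, 0.59, 0.24 and 0.04 on the log2 scale, and the fitted difference was 0.24 ± 0.08 (adjusted p = 0.078). Pdk4 was also the member whose level varied most within one barcode set, with 239 CPM in muscle 1 and 94.04 CPM in muscle 2. Pdk2, the kinase at a similar level, had a difference of 0.07 ± 0.07 and was higher at the first end in 3 of 4 muscles. For the rare kinase Pdk1 the values were 6.90, 4.67, 7.21 and 6.78 CPM at the first end, against 3.91, 6.51, 6.06 and 4.80 CPM at the last end. Muscle 2 went against the other 3, and the difference of 0.30 ± 0.24 did not pass. The phosphatase gene Pdp1, whose product reactivates the complex, had a difference of -0.03 ± 0.11 and its highest mean at the last end.

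Pcx makes oxaloacetate from pyruvate and so refills the cycle. It had 4.27, 3.95, 6.21 and 6.35 CPM at the first end of muscles 1 to 4, against 9.25, 3.66, 6.29 and 7.04 CPM at the last end. Muscle 1 alone showed a large gap, and the other 3 muscles were nearly level. The fitted difference of -0.34 ± 0.21 did not pass (adjusted p = 0.53). Cs, often used as a measure of mitochondrial content, had 387, 368, 394 and 444 CPM at the first end, against 351, 283, 362 and 398 CPM at the last end. All 4 muscles were higher at the first end, the ranges overlapped, and the difference of 0.19 ± 0.07 did not pass (adjusted p = 0.16).

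Isocitrate dehydrogenase comes in 2 mitochondrial forms, the NAD-dependent enzyme of the cycle built from Idh3a, Idh3b and Idh3g and the NADP-dependent Idh2, which supplies NADPH to the matrix. Idh2 (chromosome 7, 80094846 to 80115392 on the minus strand, GRCm38) showed the largest difference of all members. It had 23.6, 25.5, 13.6 and 8.97 CPM at the first end of muscles 1 to 4, against 12.7, 13.4, 8.31 and 7.04 CPM at the last end. Each muscle was higher at its first end, and the ranges overlapped, with muscle 4 low throughout. The fitted difference was 0.78 ± 0.16 (edgeR, adjusted p = 0.0012), and the zone means fell at every step, being 17.9 ± 7.93, 17.01 ± 7.18, 14.7 ± 6.60, 12.6 ± 6.50 and 10.4 ± 3.18 CPM (SD, n = 4).

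Of the NAD-dependent enzyme, the beta subunit gene Idh3b had 366, 353, 202 and 239 CPM at the first end of muscles 1 to 4, against 313, 306, 174 and 186 CPM at the last end. Each muscle was higher at its first end, and the ranges overlapped between barcode sets. The difference was 0.25 ± 0.07 (edgeR, adjusted p = 0.030). Exons of Nop56 on the opposite strand overlap Idh3b, and the use of strand in counting is not given. The catalytic subunit gene Idh3a had 188, 214, 289 and 297 CPM at the first end, against 165, 176, 266 and 250.4 CPM at the last end. Its first end was higher in every muscle, but the difference of 0.21 ± 0.08 did not pass, while the test among 5 zones did (adjusted p = 0.040), with the lowest mean in zone 4. Idh3g had a difference of 0.22 ± 0.08 and did not pass.

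The 2 forms were set against each other within each muscle. The ratio of Idh2 to the 3 summed Idh3 transcripts was 0.036, 0.038, 0.024 and 0.014 at the first end of muscles 1 to 4, against 0.022, 0.024, 0.016 and 0.014 at the last end. It was higher at the first end in 4 of 4 muscles, by a mean of 0.50 ± 0.28 on the log2 scale (SD, n = 4; two-sided exact sign-flip permutation test, p = 0.125, which is the smallest p that 4 muscles allow, and 0.25 after adjustment over 6 ratios).

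The 2-oxoglutarate dehydrogenase complex decarboxylates 2-oxoglutarate to succinyl-CoA. Dlst (chromosome 12, 85110833 to 85134845 on the plus strand, GRCm38), its succinyltransferase, had 28.9, 22.6, 40.3 and 27.4 CPM at the first end of muscles 1 to 4, against 18.9, 18.3, 23.4 and 18.5 CPM at the last end. All 4 muscles were higher at the first end, most of all muscle 3, and the ranges overlapped only in that the first end of muscle 2 was below the last end of muscle 3. The fitted difference was 0.60 ± 0.12 (edgeR, adjusted p = 6.3e-04). Ogdh differed by 0.23 ± 0.08 and did not pass (adjusted p = 0.11); the differences in muscles 1 to 4 were 0.19, 0.67, 0.11 and 0.01, by far the largest in muscle 2.

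Succinyl-CoA ligase, which forms ATP or GTP directly, has a common subunit, Suclg1, and 2 alternative partners, Sucla2 for ATP and Suclg2 for GTP. Suclg1 had 97.5, 94.1, 83.8 and 91.7 CPM at the first end of muscles 1 to 4, against 74.8, 71.2, 74.6 and 74.8 CPM at the last end, with no overlap between the ends. Its difference was 0.31 ± 0.08 (edgeR, adjusted p = 0.018). Sucla2 had 99.2, 104, 130.3 and 118 CPM at the first end, against 81.8, 92.4, 106 and 94.02 CPM at the last end, and differed by 0.27 ± 0.08 (edgeR, adjusted p = 0.034). Its first end was higher in every muscle, with overlapping ranges. Suclg2 had a difference of -0.05 ± 0.20 and did not pass. The log2 ratio of Suclg2 to Sucla2 had its lower value at the first end of all 4 muscles, by differences of -0.71, -0.56, -0.26 and -0.32 (two-sided exact sign-flip permutation test, p = 0.125, adjusted 0.25). Suclg2 has a near-identical processed pseudogene, and 2.87% of its counts stood in entries shared with other genes.

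Succinate dehydrogenase, which is also complex II of the respiratory chain, had 3 of 4 subunit genes higher at the first end. Sdha, the flavoprotein subunit, had 249.9, 248, 299 and 403 CPM at the first end of muscles 1 to 4, against 215, 199, 257 and 349 CPM at the last end, a difference of 0.24 ± 0.07 (edgeR, adjusted p = 0.033). The gene of the iron-sulphur subunit, Sdhb, had 128, 122, 90.4 and 95.4 CPM at the first end, against 106, 87.9, 75.02 and 73.2 CPM at the last end, a difference of 0.35 ± 0.09 (edgeR, adjusted p = 0.011). In both genes every muscle was higher at its first end and the ranges overlapped between muscles. For the membrane anchor gene Sdhc the values were 77.8, 86.2, 80.8 and 112 CPM at the first end, against 61.7, 59.8, 66.3 and 89.5 CPM at the last end, a difference of 0.36 ± 0.08 (edgeR, adjusted p = 0.0043). Muscle 4 held the most Sdhc at both ends, and each muscle was higher at its first end. The other anchor gene, Sdhd, differed by 0.06 ± 0.12, did not pass, and was lower at the first end in muscle 1.

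Fumarase (Fh1), which hydrates fumarate to malate, differed by 0.24 ± 0.11 and did not pass, although it was higher at the first end in 4 of 4 muscles. Mdh2, the matrix malate dehydrogenase that closes the cycle, had 251, 216, 239 and 313 CPM at the first end of muscles 1 to 4, against 200.2, 144, 199 and 273 CPM at the last end. Every muscle was higher at its first end, most of all muscle 2, and the ranges overlapped, with muscle 4 high throughout. The difference was 0.33 ± 0.07 (edgeR, adjusted p = 0.0044).

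The 3 remaining genes of the malate-aspartate shuttle all rose at the first end. Mdh1 (chromosome 11, 21556787 to 21572367 on the minus strand, GRCm38), the cytosolic malate dehydrogenase, had 266, 258, 219.8 and 251 CPM at the first end of muscles 1 to 4, against 214, 152, 155 and 179 CPM at the last end. The ends did not overlap. Its difference of 0.51 ± 0.07 had the smallest adjusted p of all members (1.6e-06, edgeR), and the zone means fell at every step. Exons of Wdpcp lie on the opposite strand of Mdh1.

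Got1 (chromosome 19, 43499752 to 43524605 on the minus strand, GRCm38) had 855, 1084, 1106 and 1460.3 CPM at the first end of muscles 1 to 4, against 738, 568, 882 and 1184 CPM at the last end. All 4 muscles were higher at the first end, and muscle 2 stood out, with a log2 difference of 0.93 against 0.21 to 0.33 in the other 3. The fitted difference was 0.43 ± 0.08 (edgeR, adjusted p = 2.0e-04), and it was 0.29 and no longer passed without muscle 2. Got2 had 175, 189, 86.97 and 92.1 CPM at the first end, against 157, 127, 71.2 and 82.8 CPM at the last end, a difference of 0.29 ± 0.08 (edgeR, adjusted p = 0.033). Each muscle was higher at its first end, and the ranges overlapped across the gap between barcode sets. Gm45760 exons lie on the opposite strand of Got2.

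Each shuttle enzyme exists as a mitochondrial and a cytosolic form, and their ratios are given as descriptions, since with 4 muscles the smallest p of this test is 0.125 and no ratio could pass. The ratio of Got2 to Got1 had its lower value at the first end of all 4 muscles, by log2 differences of -0.05, -0.37, -0.04 and -0.15 (two-sided exact sign-flip permutation test, p = 0.125, adjusted 0.25). The ratio of Mdh2 to Mdh1 differed by 0.01, -0.18, -0.25 and -0.29 and was below its last-end value in 3 of 4 muscles (exact p = 0.25, adjusted 0.30). Of the other ratios, Pdk4 to Pdk2 was higher at the first end in 3 of 4 muscles (mean log2 difference 0.20 ± 0.19, SD, n = 4, exact p = 0.25) and Mpc2 to Mpc1 in 2 of 4 (0.02 ± 0.18, exact p = 1.0).

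**Figure D3:**
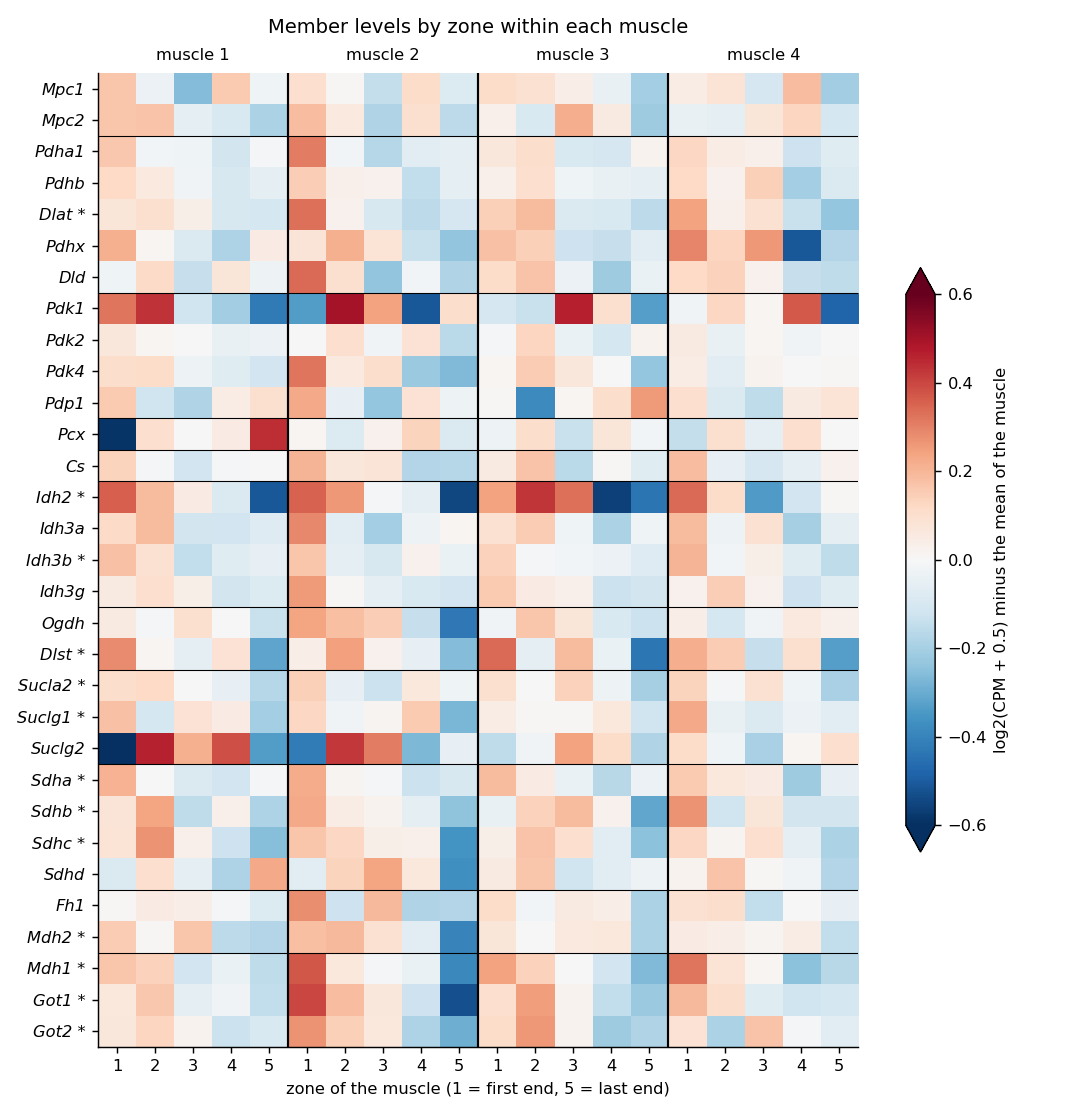
Level of each member (rows, grouped by role between the horizontal lines) in zones 1 to 5 of muscles 1 to 4, as log2(CPM + 0.5) minus the mean of that member in that muscle, with the colour scale ending at ±0.6; asterisks mark the 13 members higher at the first end. Red lies mostly in zones 1 and 2 and blue in zones 4 and 5, while rows such as Pdk1, Pdp1, Pcx and Suclg2 lack that order.

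Zone means mostly ran down from the first end to the last. The mean level was highest in zone 1 for 24 of 31 members, and lowest in zone 5 for 20 and in zone 4 for 6. For 8 members (Dlat, Pdk4, Idh2, Dlst, Sdhb, Mdh1, Got1 and Got2) each zone's mean was lower than that of the zone before it. These counts of zone order are given without the share of all genes, so they describe the members alone. Over all 5 zones, the F-test called 12 members, against 3.98% of all genes; 10 of the 12 were among the 13 that differed between the ends and the other 2 were Pdhx and Idh3a. That count was 6 without muscle 2 and 3 without muscle 3. Summed by role, the mean log2 difference between the ends was largest for the 3 shuttle genes at 0.44 ± 0.28 (SD, n = 4), followed by Fh1 with Mdh2 at 0.33 ± 0.16. The pyruvate dehydrogenase complex stood at 0.22 ± 0.10, its regulators at 0.14 ± 0.11 and Pcx at -0.29 ± 0.56. These sums are led by their most abundant members.

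Summed, the 31 members made up 1.80, 1.90, 1.96 and 2.12% of nuclear transcripts of unsaturated genes at the first end of muscles 1 to 4, against 1.61, 1.41, 1.69 and 1.80% at the last end. Unsaturated means that fewer than 90% of the possible UMIs were used in every kept section, which left out 22 genes, none of them members. Each muscle was higher at its first end, by a mean of 0.317 ± 0.128 percentage points (SD, n = 4). As a share of all counts, mitochondrially encoded ones included, the difference was 0.0491 percentage points. That total is larger, as mitochondrially encoded counts alone took 64.9% at the first end and 60.6% at the last end on average. The sizes of the differences are therefore not on one scale.

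**Figure D4:**
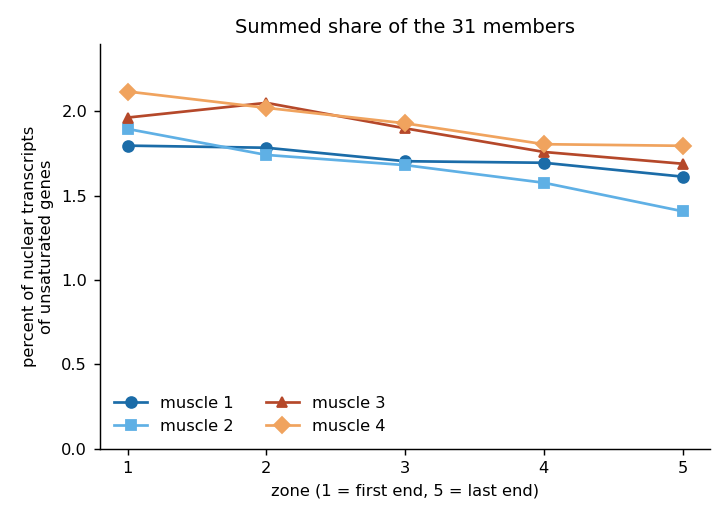
Summed share of the 31 members in nuclear transcripts of unsaturated genes, in percent, by zone, with 1 line per muscle. Zone 1 lies between 1.80 and 2.12% and zone 5 between 1.41 and 1.80%, and each muscle is higher in zone 1 than in zone 5.

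In single sections, levels also ran down from the first end for most members. Spearman's correlation of a member's CPM with position, across sections of 1 muscle, was negative for 28, 29, 28 and 30 of 31 members in muscles 1 to 4, and in all 4 muscles for 24. The median over members was -0.22, -0.35, -0.25 and -0.24. Sections of a muscle share 1 library, and depth differs between them, so these are descriptions. The counts of negative correlations are also given without the share of all genes. For Mdh1 the correlations were -0.38, -0.64, -0.54 and -0.58 in muscles 1 to 4, for Got1 -0.29, -0.78, -0.44 and -0.50 and for Idh2 -0.53, -0.43, -0.25 and -0.22. Those of Cs were -0.02, -0.50, -0.18 and -0.30, near 0 in muscle 1. Pcx had 0.46, 0.03, 0.12 and -0.05, the highest value of any member in muscle 1.

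**Figure D5:**
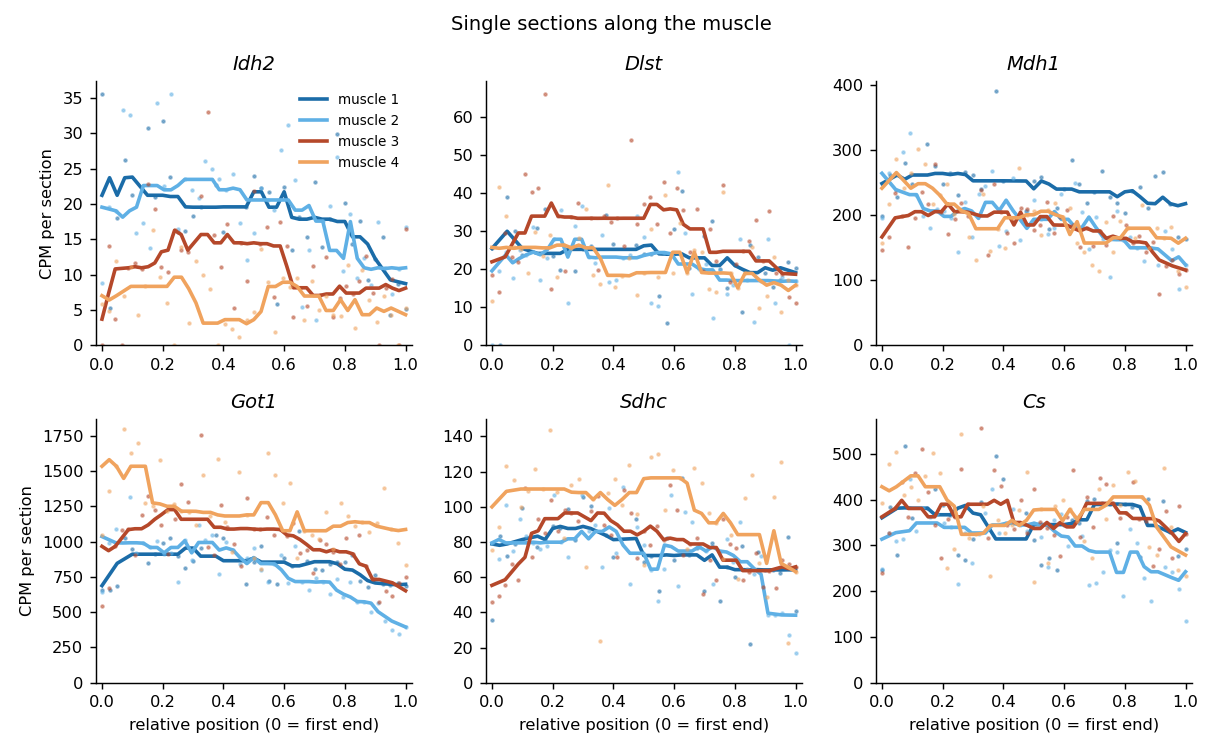
CPM of 6 members in single sections (points) against relative position, from 0 at the first end to 1 at the last end, with a running median over 9 sections for each muscle. Mdh1 and Got1 run down over most of the length in all 4 muscles, with a lower start in muscle 3 for both and in muscle 1 for Got1, Idh2 is lower in muscles 3 and 4 at most positions, and Cs has no steady trend in muscle 1.

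No member passed between the ends and the middle. With edgeR, 0 of 31 members passed in the contrast of the mean of zones 1 and 5 with zone 3, against 1.45% of all genes (0.623% higher and 0.826% lower). At an unadjusted p under 0.05 there were 6 members, the smallest adjusted p was 0.19, and DESeq2 also called 0, with 5 at an unadjusted p under 0.05. Differences from the middle were positive for 14 members and negative for 17, with a median of -0.01. The split of all called genes depended on the scaling, with 58 higher and 77 lower by edgeR, 74 and 28 by DESeq2, and 20 and 126 with equally weighted sections and TMM in limma, while no setting called a member.

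Among related genes outside the list, a lactate dehydrogenase subunit showed the largest shift that held without any one muscle. Of 38 further genes of the pathway (isoforms, assembly factors, lipoate synthesis, carriers and lactate metabolism), 29 passed the filter, and 4 of these were higher at the first end and 0 lower. Ldhb, the lactate dehydrogenase subunit of oxidative tissue, averaged 34.7 ± 12.4 CPM at the first end and 15.7 ± 4.28 CPM at the last end (SD, n = 4), a log2 difference of 1.05 ± 0.13 (edgeR, adjusted p = 1.2e-08), higher in 4 of 4 muscles. Pdp2, another phosphatase of the pyruvate dehydrogenase complex, averaged 3.19 ± 1.00 CPM at the first end and 1.21 ± 0.688 CPM at the last end, a low level, and differed by 1.28 ± 0.37 (adjusted p = 0.038). Both the 2-oxoglutarate dehydrogenase adaptor gene Mrps36 (0.35 ± 0.09, edgeR, adjusted p = 0.019) and the malate and 2-oxoglutarate carrier gene of the shuttle, Slc25a11 (0.37 ± 0.10, adjusted p = 0.017), also rose. Slc25a12, the aspartate and glutamate carrier of the shuttle, was more abundant (301 CPM on average, against 54.1 CPM for Slc25a11) and did not pass (0.17 ± 0.07, edgeR, adjusted p = 0.24), with its first end higher in 3 muscles and lower in muscle 4. Of the genes that passed, Ldhb passed whichever muscle was left out, Pdp2 was lost without muscle 1, 2 or 4, Mrps36 without 1, 2 or 3 and Slc25a11 without 1 or 2. Between the ends and the middle, 1 of the 29 passed: malic enzyme 1 (Me1) was higher at the ends by 0.28 ± 0.08 (edgeR, adjusted p = 0.043), a call lost without muscle 2, 3 or 4.

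Some markers of fibre types and of other cells also differed between the ends. Erythrocyte genes were higher at the first end for 5 of 5, with sums of 1365 to 3552 CPM at the first end and 633 to 1759.6 CPM at the last end over the 4 muscles. Of the fibre genes, Myh1, the type 2X myosin, was higher at the first end by 0.29 ± 0.08 (edgeR, adjusted p = 0.040). Fast glycolytic fibre genes were lower for 2 of 6 (sums of 23414 to 33283 and 27545 to 39005 CPM). These were the type 2B myosin Myh4 and Actn3, with differences of -0.31 ± 0.08 and -0.37 ± 0.08. The other genes of that list did not pass, with differences of -0.25 for Pvalb, -0.19 for Mylpf, -0.07 for Tnnt3 and -0.08 for Tnni2. Myh4, Pvalb and Tnnt3 are saturated genes, whose differences are uncertain. Myh1 no longer passed without muscle 2 or 3, Myh4 without 2 or 4 and Actn3 without 2. Endothelial genes were higher for 2 of 10 (Kdr and Cd36), with sums of 304 to 408 CPM at the first end and 222 to 375 CPM at the last end, and Kdr was lost without muscle 1 or 2. Smooth muscle genes were higher for 2 of 7 tested, Acta2 and Myh11 (sums of 161 to 313 and 148 to 237 CPM). The log2 differences in muscles 1 to 4 were 0.99, -0.17, 0.02 and 1.12 for Acta2 and 0.87, 0.01, 0.07 and 1.70 for Myh11, near 0 or below it in muscles 2 and 3. Neither passed without muscle 4, nor Acta2 without muscle 1. Tendon genes were lower for 3 of 4 tested (Fmod, Chad and Prg4), with sums of 8.67 to 19.8 CPM at the first end and 36.3 to 144 CPM at the last end. Schwann cell genes were higher for 2 of 5 tested (sums of 10.4 to 34.7 and 7.56 to 15.3 CPM), and Sox10 did not pass without muscle 4. Of 8 fibro-adipogenic genes tested, Cxcl14 was higher, whichever muscle was left out, and Col1a1 lower (sums of 326 to 520.5 and 431 to 609.7 CPM). The log2 differences of Col1a1 in muscles 1 to 4 were -1.96, -0.97, 0.07 and -0.46, and the fitted -0.67 moved to between -1.03 and -0.31 with 1 muscle left out and did not pass without muscle 1 or 2. Of the other lists only some genes had enough counts to test, and none of those passed in this contrast. Tested were 4 of 6 macrophage genes (sums of 17.5 to 26.6 and 23.8 to 38.7 CPM), 2 of 4 adipocyte genes (sums of 1.90 to 12.8 and 1.51 to 12.6 CPM), 1 of 4 satellite cell genes (sums of 2.21 to 5.91 and 3.02 to 6.53 CPM), 2 of 7 slow fibre genes (sums of 15.5 to 31.3 and 13.1 to 40.2 CPM) and the type 2A gene (sums of 97.9 to 588 and 75.4 to 560.1 CPM). The untested slow fibre genes include Myh7, the slow myosin. First end minus last end was 0.17 ± 0.12 for the type 2A gene Myh2 and 0.15 ± 0.18 for the slow fibre gene Myl3. Both were instead lower at the ends than in the middle, by log2 differences of -0.71 ± 0.09 and -0.92 ± 0.13. These passed (edgeR, adjusted p = 6.2e-07 and 1.5e-06), in the contrast where no member did. Atp2a2, the other slow fibre gene tested, passed in neither contrast. No marker was at 0 in any list. The part of these cells and fibre types in the differences of the members was not tested.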

How the data were processed

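Single cryosections of 4 tibialis anterior muscles were profiled by TOMO-seq with CEL-Seq2, using UMIs of 6 bases and section barcodes of 8, per the labels' protocols. The authors deposited 1 table of estimated counts, genes by section barcodes, per muscle. The submitters' processing notes name STAR 2.7.7a and GRCm38; the sources used here do not give the counting program, its annotation or its use of strand. From the values, 100.0% of the deposited estimated counts lie within 0.001 of a whole number of UMIs corrected for repeat draws out of 4096. The authors also deposited filtered tables whose values are a normalized signal, used here only to learn which 171 sections were kept (matched within a relative tolerance of 1e-06).

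Kept sections were ordered by barcode number, cut into 5 zones of equal length per muscle, summed and rounded, and tested with edgeR 4.0.16 in R 4.3.3 (TMM, filterByExpr, quasi-likelihood F-test, muscle as a block, adjusted p of 0.05 over 9317 genes). Zones share a muscle, so muscle pairs them; the biological coefficient of variation was 7.03%. Entries naming several genes were left out (0.580 to 0.930% of counts). Alternatives used DESeq2 1.42.0, limma 3.58.1, other zone numbers, filters, depths, weights and muscle subsets, and the scripts were tested on simulated data. Coordinates come from GENCODE M21. The members, lists, motifs, contrasts and tests were chosen with earlier results of these data known. The rule for named genes takes every member, with values in 4 muscles for those called and the 3 largest uncalled differences (Pcx, Pdk1 and Pdhx), and related genes where called. Values in 4 muscles for Mpc1, Pdk4 and Cs, and those of Slc25a12, were added outside this rule after their values were seen.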

Additional observations from a re-analysis of the deposited data

Results flagged for a closer look

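In 99 sets of 4 muscle values (the level of each member and its 2 differences along the muscle, with those of the reported ratios), 5 had 1 muscle far from the other 3, where about 5% of such sets are expected to by chance. Pdp1 had a mean level of 45.7 CPM in muscle 3, against 24.5 to 26.8 CPM in the other muscles. The other 4 were log2 differences of the first end minus the last end. Muscle 2 stood apart for Got1 (0.93, others 0.21 to 0.33), Cs (0.38, others 0.12 to 0.16) and Sdha (0.32, others 0.21 to 0.22), and muscle 4 for Idh3b (0.36, others 0.21 to 0.22).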

How the results depend on the processing

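All 13 members called between the ends kept a higher level at the first end under each of the 16 alternatives run, but the number called varied. Between the ends, the members called were 8 with no filter on low counts, 5 in muscles 1 and 2 alone, 2 in muscles 3 and 4 alone, 5 with 10 zones and 1 with each section weighted equally in limma, and from 3 to 10 with 1 muscle left out. Genes called were 161 in muscles 1 and 2 alone, 74 in muscles 3 and 4 alone, 131 with 10 zones and 167 with equal weights, and from 87 (without muscle 2) to 201 with 1 muscle left out, 180 without muscle 3 and 195 without muscle 4. With equal weights and no TMM the median of all genes moved to -0.12, and the called genes split into 29 higher and 138 lower, against 190 and 106. Relative to that median the members' median was 0.26, and 29 of 31 members were above it. With TMM over sections, an alternative chosen after seeing the data like the leave-outs of the summed share, 13 members were called again, 12 of them shared.

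Between ends and middle, no alternative called a member, while genes called were 44 in muscles 1 and 2 alone, 55 in muscles 3 and 4 alone, 42 with 3 zones, 333 with 10, 68 with thinned sums and 88 with equal weights, and from 38 (without muscle 3) to 183 with 1 muscle left out, 74 without muscle 2. Among 5 zones, members called were 6 with no filter, 5 in muscles 1 and 2 alone, 2 in muscles 3 and 4 alone and 1 with equal weights, and from 3 to 12 with 1 muscle left out. Genes called there were 179, 158 and 244 in muscles 1 and 2, in muscles 3 and 4 and with equal weights, and from 173 (without muscle 3) to 327 with 1 muscle left out, 199 without muscle 2. With no replicate block, members called were 0 in each contrast, and genes called were 1 between the ends, 0 between ends and middle and 4 among zones. The summed share differed by 0.0491 percentage points as a share of all counts, a larger total, so its size is not comparable with the main 0.317. As a share of nuclear transcripts of unsaturated genes, it differed by 0.260 to 0.361 with 1 muscle left out. The cause of these changes was not tested. Members under 10 CPM (Pdk1, Pcx and Suclg2) had the widest errors.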
